A study of Mus musculus with 12 samples.

Results

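The genes described here encode the ubiquitin-specific proteases (Usp family) other than Usp7 and Usp18, taken as every gene probe whose current gene symbol is Usp followed by digits. They are 51 of the 18295 genes named on the array and 128 of its 41174 gene probes. Of the genes, 12 had 1 probe and 39 had several, up to 8 for Usp15. Of these probes, 4 carried an older symbol and were matched as Usp17la, Usp17lb, Usp17lc and Usp17le, near-identical copies of the Dub gene cluster whose probes may not tell the copies apart. The mouse RefSeq table held 54 protein-coding symbols of this form, and Usp17ld, Usp35 and Usp51 were not analysed here. Usp6nl met the rule by its letters only, since it encodes a Rab GTPase-activating protein and not a protease.

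RNA came from mature adipocytes of 3T3-L1, a mouse fibroblast line that turns into fat cells in culture, and was hybridised to 12 two-colour arrays. All cells had been differentiated and then electroporated (Amaxa) with small interfering RNA, either a control (control-si), one against Usp7 (USP7-si) or one against TIP60, the product of Kat5 (TIP60-si), and were lysed 2 days later. There were 4 arrays per group, 2 with the adipocyte RNA in Cy3 and 2 in Cy5, and the other dye carried a common reference of undifferentiated 3T3-L1 RNA. The data are log2 ratios of adipocyte over reference, and the 3 groups were compared with limma, with p-values adjusted over all 41174 probes and calls at an adjusted p below 0.05. All cells are of 1 line, the labels give no small interfering RNA sequences, and whether the 4 replicates of a group came from separate cultures is not stated. The p-values therefore cover the spread between these 4 samples, which may be technical.

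Ubiquitin-specific proteases are cysteine proteases that cut ubiquitin from other proteins and so oppose the ubiquitin ligases that mark proteins for the proteasome or change their location or activity. They form the largest family of deubiquitinases in mammals, and several members can act on the same substrate, as Usp7, Usp2 and Usp15 do on the ubiquitin ligase MDM2. The questions asked of the family were which members differ between fat cells and their undifferentiated form, and whether any member is higher when Usp7 is silenced, as a transcriptional compensation would show.

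Between 85.2% and 98.3% of the gene probes lay above background on each array. Of the 128 Usp probes, 96 were above background on all 12 arrays, as were the brightest probes of 47 of the 51 genes, the exceptions being Usp17lc, Usp17le, Usp26 and Usp9y. The array of USP7-si replicate 4 stood apart, with a median absolute log2 ratio of 0.055 over all probes against 0.109 to 0.148 on the other arrays. Without it the counts of called Usp probes were 0 in USP7-si and 3 in TIP60-si versus control-si, as with it, and 5 between the knockdowns in place of 8. Usp7 fell by 1.64 on the log2 scale in USP7-si (adjusted p = 1.16e-05), to 32.0% of control-si, while a dimmer Usp7 probe did not (0.028, adjusted p = 0.986). Kat5 in TIP60-si fell by 0.999 (adjusted p = 1.17e-05). All 8 adipocyte markers lay above the reference by more than 1 on the log2 scale in control-si. The median of the 4 dividing-cell markers measured ran from 1.43 to 1.75 over the control-si arrays, from 0.911 to 1.32 over USP7-si and from 1.11 to 1.34 over TIP60-si. In TIP60-si 3 of these markers were called lower, Cdc20, Foxm1 and Mki67, and in USP7-si none (limma, 0 called). Over all named genes 5.21% were called in TIP60-si and 0.137% in USP7-si. All 4 were lower in USP7-si too, at differences from -0.51 to -0.21. Their arrays did not overlap those of control-si, against 4.68% of all probes. Each had an unadjusted p below 0.05 (limma), against 7.22% of the named genes. Top2a differed more in USP7-si (-0.51) than in TIP60-si (-0.18). The part of these markers in the results below was not tested.

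In the main fit Usp transcripts lay within 2-fold of their level in undifferentiated cells. No Usp gene lay past 2-fold over or under the reference in control-si adipocytes (0 of 51), where 3.22% of all probes and 4.94% of the named genes did. With plain background subtraction in place of the main correction, 2 Usp genes did. In the main fit the median of the 51 genes was -0.054 on the log2 scale, against -0.0023 over the 18295 named genes. All 4 control-si arrays lay above the reference for 15 genes and below it for 21, and 15 genes had arrays on both sides. A mean beyond 0.5 either way was reached by 6 of the 51 genes (11.8%), against 15.7% of the named genes, and by 6 of the 128 probes (4.69%), against 11.2% of all probes. The reference is 1 RNA with no spread of its own, so these ratios are a description without a test, and in RNA from whole cultures fewer cells of a type and less RNA per cell cannot be told apart.

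The genes highest over the reference were Usp20 and Usp2. Usp20 encodes a protease that acts on the beta2-adrenergic receptor and on HMG-CoA reductase, the rate-limiting enzyme of cholesterol synthesis. Its brightest probe stood at 0.94, 1.06, 0.74 and 0.80 on the 4 control-si arrays, a mean of 0.89 ± 0.15 (SD, n = 4), or 1.85-fold. Its other probe stood at -0.06, 0.09, 0.11 and 0.10, a mean of 0.061. The probes of Usp20 thus disagreed on all 4 arrays, and the gene's height over the reference rests on 1 of them. Usp2 encodes a protease of MDM2 that is also reported to stabilise fatty acid synthase in human prostate cells. It stood at 0.82, 0.85, 0.48 and 0.50, a mean of 0.66 ± 0.20, with its other probe at 0.27. Replicates 1 and 2 were high and replicates 3 and 4 lower, with each dye in both pairs. The arrays of Usp20 and Usp2 overlapped, as did those of Usp2 and the next gene, Usp38 (0.37 ± 0.17), so their order is not separated by their spread.

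Below these came Usp9x, a large protease with roles in endocytosis and cell polarity (0.29 ± 0.053), Usp54 (0.27 ± 0.065), the cytokine-inducible deubiquitinase Usp17la (0.22 ± 0.028), the proteasome-bound Usp14 (0.22 ± 0.040) and Usp28, a protease of MYC and of the DNA damage response (0.21 ± 0.082). All 4 arrays of each lay above the reference by this probe. A second Usp9x probe above background lay below the reference on all 4 arrays, at a mean of -0.13, so the side of Usp9x depends on the probe. Usp14 had 3 probes above background on all arrays, at 0.22 to 0.47, so all of them lay on the same side.

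Usp31 was lowest, at -0.698, -0.704, -1.004 and -0.947, a mean of -0.84 ± 0.16 or 0.559-fold. Next was Usp6nl at -0.72 ± 0.037, whose product switches off Rab5 on early endosomes, with arrays from -0.77 to -0.69 that overlapped those of Usp31 and lay below all 4 of the gene after it. That gene, Usp48 (-0.54 ± 0.082), had 2 more probes above background with means up to 0.25. Its probes fell on opposite sides of the reference. The others among the 8 lowest were Usp21, a histone H2A deubiquitinase (-0.50 ± 0.089), Usp27x, a close copy of Usp22 (-0.50 ± 0.034), the endosome and Golgi protease Usp32 (-0.47 ± 0.080), Usp43 (-0.41 ± 0.10) and Usp46, a paralog of Usp12 (-0.37 ± 0.043). Usp32 had 3 more probes above background, at means of -0.47, 0.11 and 0.20, so its probes too fell on opposite sides of the reference.

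**Figure D1:**
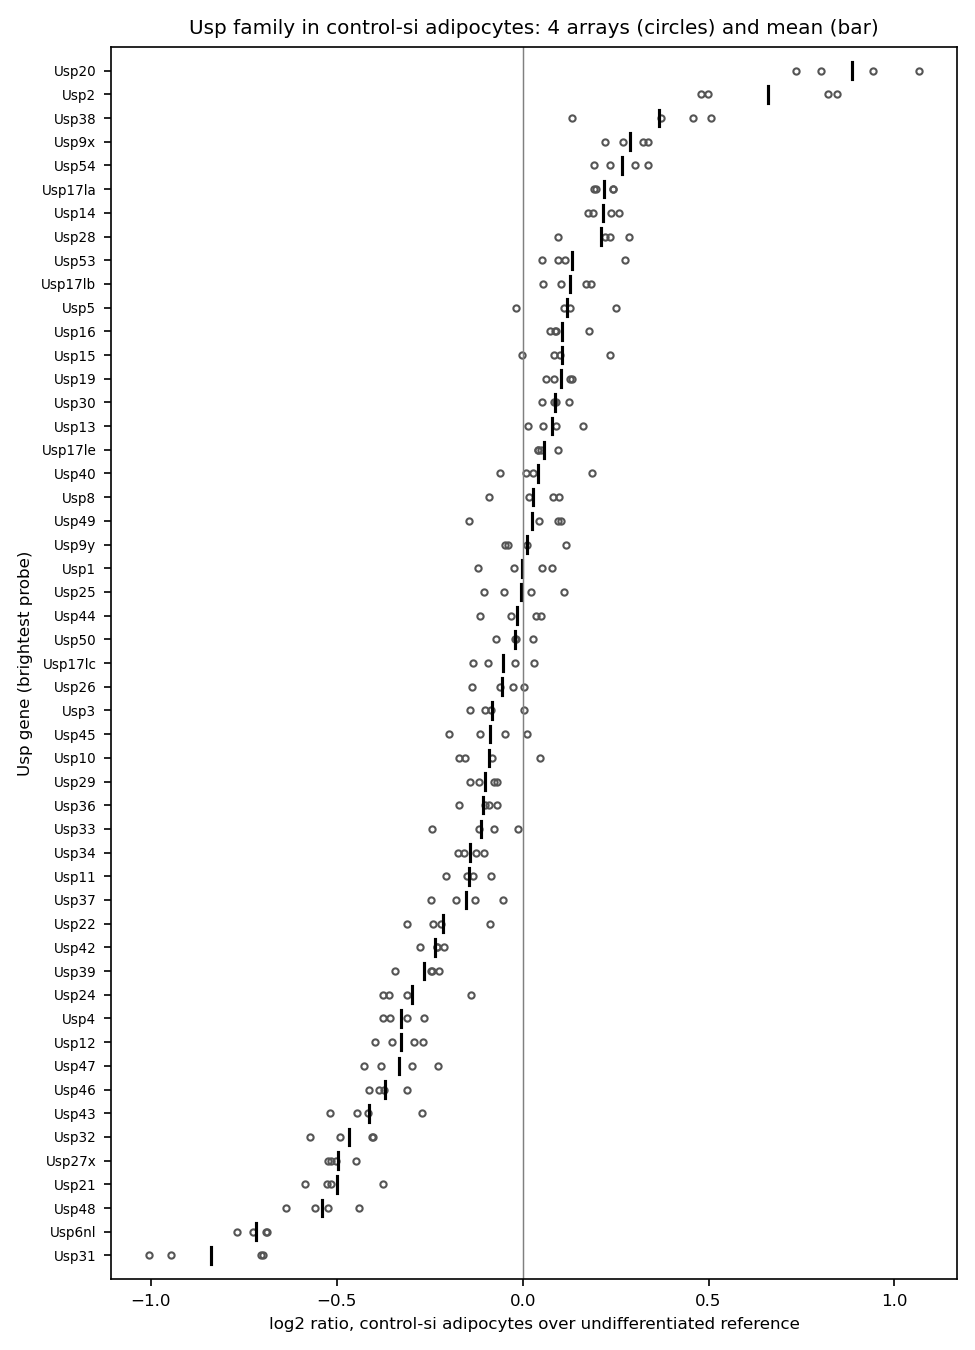
Log2 ratio of control-si adipocytes over the undifferentiated reference (x axis) for the brightest probe of each of 51 Usp genes (y axis), with the 4 arrays as circles and their mean as a bar. Usp20 at 0.89 and Usp2 at 0.66 are highest, Usp31 at -0.84 and Usp6nl at -0.72 are lowest, and no mean passes 1 either way.

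The upstream sequences of Usp20 and Usp31, the genes at the ends of this order, are shown so that their promoters can be set side by side. Each is the 250 bases before the transcript start used in the RefSeq promoter table (GRCm38.p6), read 5′ to 3′ on the gene's strand, from chr2:30982029-30982278 (plus strand) and chr7:121707443-121707692 (minus strand). The Usp20 window ends at the gene's boundary, and the last 19 bases of the Usp31 window lie inside the span RefSeq gives for the gene. Capitals mark matches to GGGCGG (GC box) or CACGTG (E-box), on either strand.
Usp20: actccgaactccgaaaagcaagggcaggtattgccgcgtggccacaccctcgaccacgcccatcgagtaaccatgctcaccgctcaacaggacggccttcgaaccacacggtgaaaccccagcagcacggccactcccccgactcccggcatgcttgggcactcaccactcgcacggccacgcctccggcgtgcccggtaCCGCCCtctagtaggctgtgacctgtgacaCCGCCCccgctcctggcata
Usp31: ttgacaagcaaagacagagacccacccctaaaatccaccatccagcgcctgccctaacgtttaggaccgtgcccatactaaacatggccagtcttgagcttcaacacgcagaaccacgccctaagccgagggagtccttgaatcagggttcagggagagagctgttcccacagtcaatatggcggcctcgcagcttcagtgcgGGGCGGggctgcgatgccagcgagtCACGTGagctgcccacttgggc
Usp20 held 2 GC boxes and no E-box, and Usp31 held 1 GC box and 1 E-box. CCAAT and TATAAA were searched as well and had 0 matches in either. The letters of these 4 motifs do not contain each other, and matches of 1 motif may share letters. The promoter table held 40 promoters for 39 of the 51 genes, and a GC box lay in 24 of them (60%) against 32.7% of 32851 promoters. For the E-box the shares were 10% and 6.02%, for CCAAT 27.5% and 33.8%, and for TATAAA 10% and 12.4%. The median GC content was 63.4% in the Usp promoters and 52.4% in all promoters. A match is a description of the letters and not of a bound site.

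When Usp7 was silenced, no other Usp gene was called higher or lower. With limma 0 of the 128 probes passed, where 35 of all probes did (0.085%, with 0.0316% higher and 0.0534% lower), and the smallest adjusted p was 0.599. At an unadjusted p below 0.05 there were 9 Usp probes (7.03%), against 6.27% of all probes, and by brightest probe 6 of the 51 genes (11.8%), against 7.22% of the named genes. The USP7-si and control-si arrays did not overlap for 5 Usp probes (3.91%), against 4.68% of all probes. The median of the 51 genes was 0.013, against 0.0039 over all named genes. The shares of probes lie near the background of the array.

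The 95% intervals of the brightest probes, each taken for 1 probe on its own, give the room left for a rise at that probe. The highest upper end of a 95% interval among the 51 brightest probes was 0.32 on the log2 scale or 1.25-fold, for Usp31, whose estimate was 0.14. All 51 intervals lay within 1.5-fold either way, and 46 lay within 1.25-fold. Over the 23 settings the estimate of Usp31 ran from -0.079 to 0.21. Over all 128 Usp probes the largest estimate was 0.19, from a probe that was not the brightest of its gene and so is not covered by these bounds. The bounds are those of the main fit and were not taken under the other settings, so they hold for 1 way of processing. They are not adjusted for taking the highest of 51. Each is for RNA seen by 1 probe and says nothing of protein or enzyme activity.

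The closest relatives of Usp7 by sequence, Usp47 and Usp40, were not called either. Usp47 encodes a protease of DNA polymerase beta. It read -0.30, -0.23, -0.43 and -0.38 over the reference in control-si and -0.19, -0.35, -0.22 and -0.25 in USP7-si, with overlapping arrays. The difference was 0.082 (SE 0.057, 95% interval -0.040 to 0.20, adjusted p = 0.912, limma), and the other 6 probes ran from -0.093 to 0.055. Usp40 read 0.19, 0.03, -0.06 and 0.01 in control-si and 0.14, 0.10, 0.09 and 0.01 in USP7-si, again overlapping. Its difference was 0.043 (SE 0.070, 95% interval -0.11 to 0.19, adjusted p = 0.979), and that of its other probe was -0.025.

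The smallest p in this comparison belonged to Usp1, which removes ubiquitin from FANCD2 and PCNA during DNA repair. Its control-si arrays read -0.02, 0.05, -0.12 and 0.08 and its USP7-si arrays -0.30, -0.15, -0.11 and -0.21. The groups overlapped by 1 array on either side, and the difference was -0.19 (SE 0.066, adjusted p = 0.599, at lowest 0.200 over 22 alternatives). Its substrates' genes Fancd2 and Pcna gave -0.16 (adjusted p = 0.608) and -0.33 (adjusted p = 0.255). Usp25, a protease of the endoplasmic reticulum and of innate immune signalling, read -0.05, 0.02, -0.38 and -0.50 in USP7-si against 0.02, 0.11, -0.10 and -0.05 in control-si. Replicates 1 and 2 thus lay among the controls and replicates 3 and 4 far below them. The difference of -0.23 was not called (SE 0.097, adjusted p = 0.742). It was -0.12 without USP7-si replicate 4 and ran from -0.38 to -0.12 over the 22 alternatives.

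The other members with the smallest p were Usp17la (-0.13), Usp5, which disassembles free ubiquitin chains (-0.14), Usp27x (0.12) and Usp37, a cell cycle protease (0.13), with adjusted p from 0.686 to 0.792. Without USP7-si replicate 4, the array that stood apart, Usp17la gave -0.081 and Usp27x 0.076, and without control-si replicate 3 Usp5 gave -0.092. Other arrays moved them the other way. Without USP7-si replicate 2 Usp17la gave -0.15 and Usp27x 0.15, and without control-si replicate 2 Usp5 gave -0.19. Among these members only the arrays of Usp17la did not overlap. The remaining probes without overlap, picked out after their values were seen, were 1 each of Usp24 (-0.081), Usp48 (-0.11), Usp5 (-0.056) and Usp53 (0.068). For the members highest over the reference by brightest probe, the differences were -0.19 for Usp20 (95% interval -0.40 to 0.011) and -0.16 for Usp2 (-0.39 to 0.067). Neither was called (adjusted p = 0.815 and 0.907, limma). The differences in TIP60-si were of like size, -0.14 and -0.19, and were not called either (adjusted p = 0.525 and 0.412). The other probe of Usp20 gave -0.045 in USP7-si and 0.024 in TIP60-si.

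**Figure D2:**
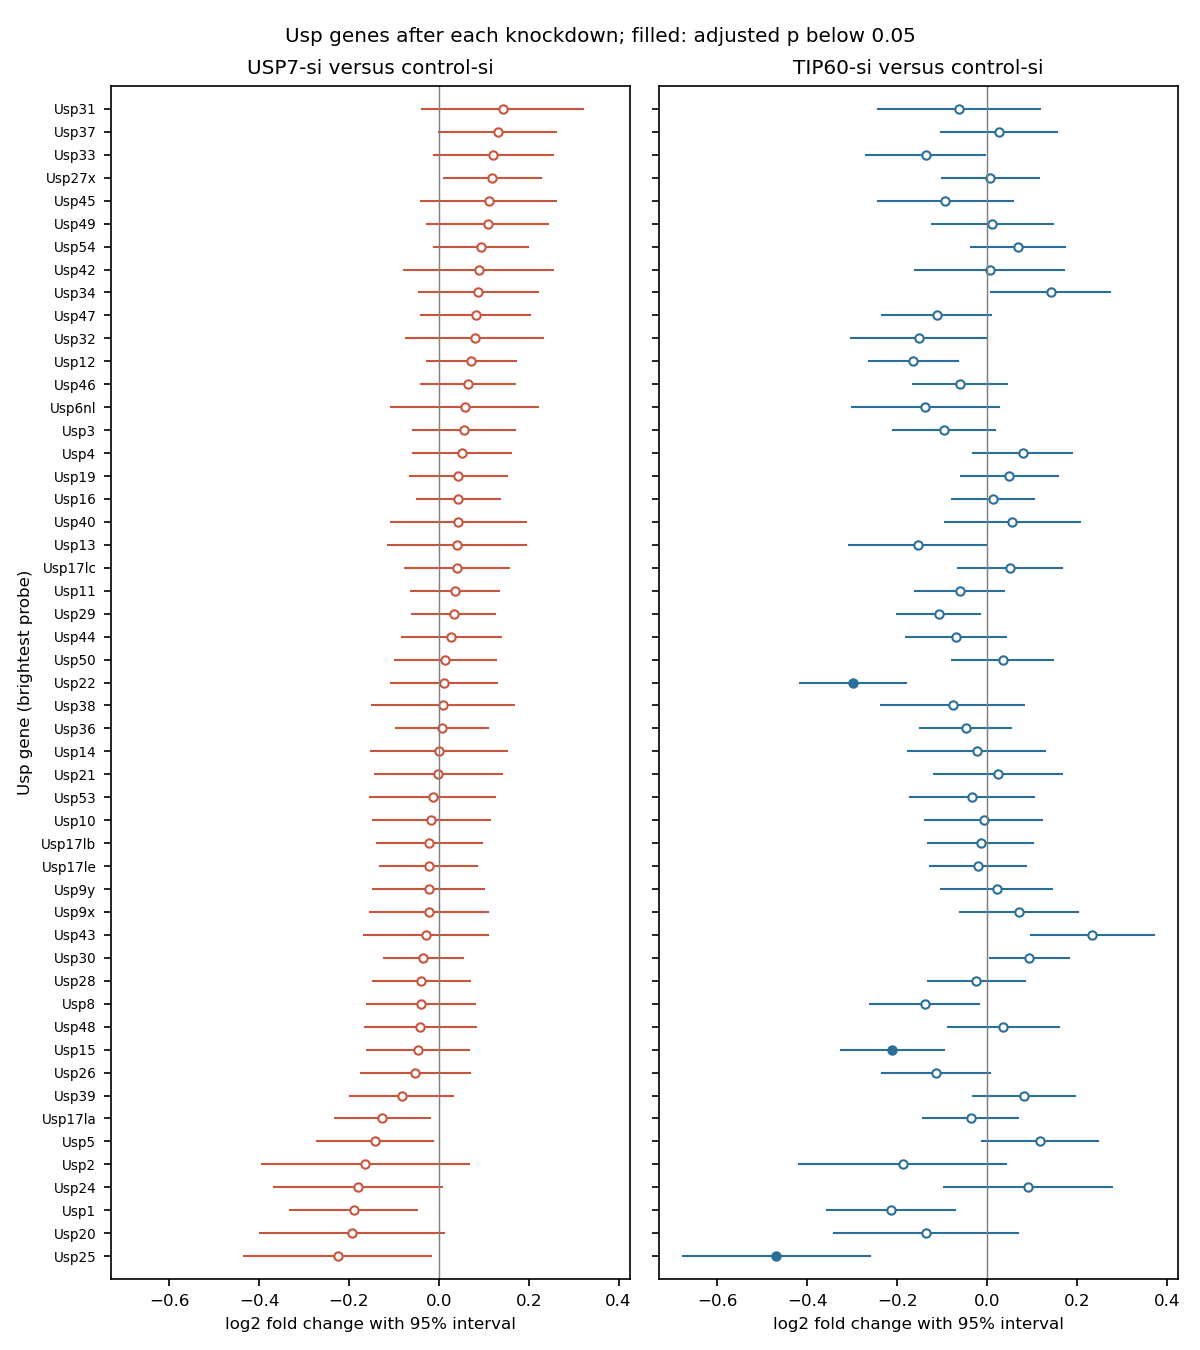
Log2 fold change (x axis) of the brightest probe of each of 51 Usp genes (y axis, in the order of the left panel) in USP7-si and TIP60-si versus control-si, with 95% intervals over 4 arrays a group. No point is filled on the left, where the highest upper end is 0.32, and Usp22, Usp25 and Usp15 are filled on the right. The panels share the control-si arrays.

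In TIP60-si, 3 Usp genes were called lower than in control-si and none higher. The called probes, 3 of 128 (2.34%, all lower), compare with 3.78% of all probes (2.53% lower and 1.25% higher). The arrays did not overlap for 11 Usp probes (8.59%) against 11.5% of all probes, and 20 probes had an unadjusted p below 0.05 (15.62%) against 17.2%. The median of the 51 genes was -0.023 and that of all named genes -0.0047. By brightest probe 5.88% of the Usp genes and 5.21% of all named genes were called, so the family's share lies near the background.

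Usp22 encodes the enzyme of the SAGA coactivator that removes ubiquitin from histone H2B. It read -0.09, -0.24, -0.31 and -0.22 over the reference in control-si, -0.25, -0.22, -0.24 and -0.10 in USP7-si, and -0.46, -0.56, -0.51 and -0.52 in TIP60-si. All 4 TIP60-si arrays lay below all the others, and the USP7-si and control-si arrays overlapped. The difference from control-si was -0.30 (SE 0.055, adjusted p = 0.00886, limma), or 81.3% of control-si. A dimmer probe, above background on 3 of 4 arrays in control-si and in TIP60-si, gave -0.043 (adjusted p = 0.737). The call was lost with median centring (adjusted p = 0.569), scaling to an equal spread (0.0848) and no dye term (0.0502), within a range of 0.00402 to 0.569 over 22 alternatives.

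The genes for the partners of Usp22 in its SAGA module did not pass. The differences in TIP60-si were -0.11 for Atxn7 (adjusted p = 0.392), 0.0031 for Atxn7l3 (0.990) and 0.016 for Eny2 (0.943). The related genes Atxn7l1 and Atxn7l2 gave 0.013 (0.944) and 0.19 (0.0621). The arrays of Atxn7l2 did not overlap those of control-si, and it lay higher where Usp22 lay lower. Usp27x, which can take the place of Usp22 in the module, gave 0.0077 (0.965).

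Usp25 had the largest called difference of the family. It read -0.43, -0.47, -0.47 and -0.52 in TIP60-si, below all 4 control-si arrays, which lay between -0.10 and 0.11. The difference was -0.47 (SE 0.097, adjusted p = 0.0162), or 72.2% of control-si. Replicates 3 and 4 of USP7-si, at -0.38 and -0.50, lay near these values. The other probes of Usp25 gave -0.084 and -0.13 (adjusted p = 0.561 and 0.380). The call was lost without control-si replicate 1 (adjusted p = 0.0502) or replicate 2 (0.0638), with plain background subtraction (0.0782), with median centring (0.195) and with scaling (0.584), within a range of 0.00262 to 0.584.

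Usp15 encodes a protease of MDM2 and of the TGF-beta receptor complex. It read 0.09, 0.23, 0.10 and -0.0011 in control-si and -0.10, -0.05, -0.12 and -0.15 in TIP60-si, without overlap. The difference was -0.21 (SE 0.053, adjusted p = 0.0437), or 86.4% of control-si. It was the only 1 of the 8 Usp15 probes called, and the others ran from -0.10 to 0.072. The call was lost under 17 of 22 alternatives, in a range of 0.0354 to 0.605, among them without any of control-si replicates 1, 2 and 3, TIP60-si replicates 1 to 4 and USP7-si replicates 1, 3 and 4 (adjusted p from 0.0513 to 0.131). Without control-si replicate 1 or 2 the count of called Usp probes was 1, and without control-si replicate 3 it was 6.

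Next by p were 3 members that did not pass the threshold. Usp43 read -0.44, -0.52, -0.27 and -0.42 in control-si and -0.17, -0.27, -0.15 and -0.11 in TIP60-si, a difference of 0.23 (SE 0.064, adjusted p = 0.0602). Its groups met at 1 array of each, and 5 of the 23 settings called it. Usp12, a histone deubiquitinase that needs the partner Wdr48, read -0.29, -0.27, -0.35 and -0.40 in control-si and -0.53, -0.52, -0.46 and -0.45 in TIP60-si. The groups did not overlap, with a difference of -0.16 (SE 0.046, adjusted p = 0.0680), while its other probe gave 0.10. Usp1, another user of Wdr48, gave -0.21 (SE 0.066, adjusted p = 0.0968), with TIP60-si arrays at -0.18, -0.23, -0.09 and -0.37. Its groups overlapped.

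The upstream sequence of Usp12, which lay lower in TIP60-si with no overlap of arrays, is shown because its window lies wholly outside the gene. It comes from RefSeq (GRCm38.p6) as before, at chr5:146794957-146795206 (minus strand). Capitals mark GC boxes (GGGCGG on either strand).
Usp12: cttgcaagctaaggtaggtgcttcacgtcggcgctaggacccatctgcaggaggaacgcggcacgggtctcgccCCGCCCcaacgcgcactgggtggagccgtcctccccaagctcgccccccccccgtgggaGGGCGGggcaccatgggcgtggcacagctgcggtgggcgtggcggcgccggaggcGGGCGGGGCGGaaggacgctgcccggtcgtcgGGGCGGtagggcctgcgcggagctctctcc
Usp12 held 5 GC boxes, and no E-box, CCAAT or TATAAA was found. Its GC content was 74.8%.

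**Figure D3:**
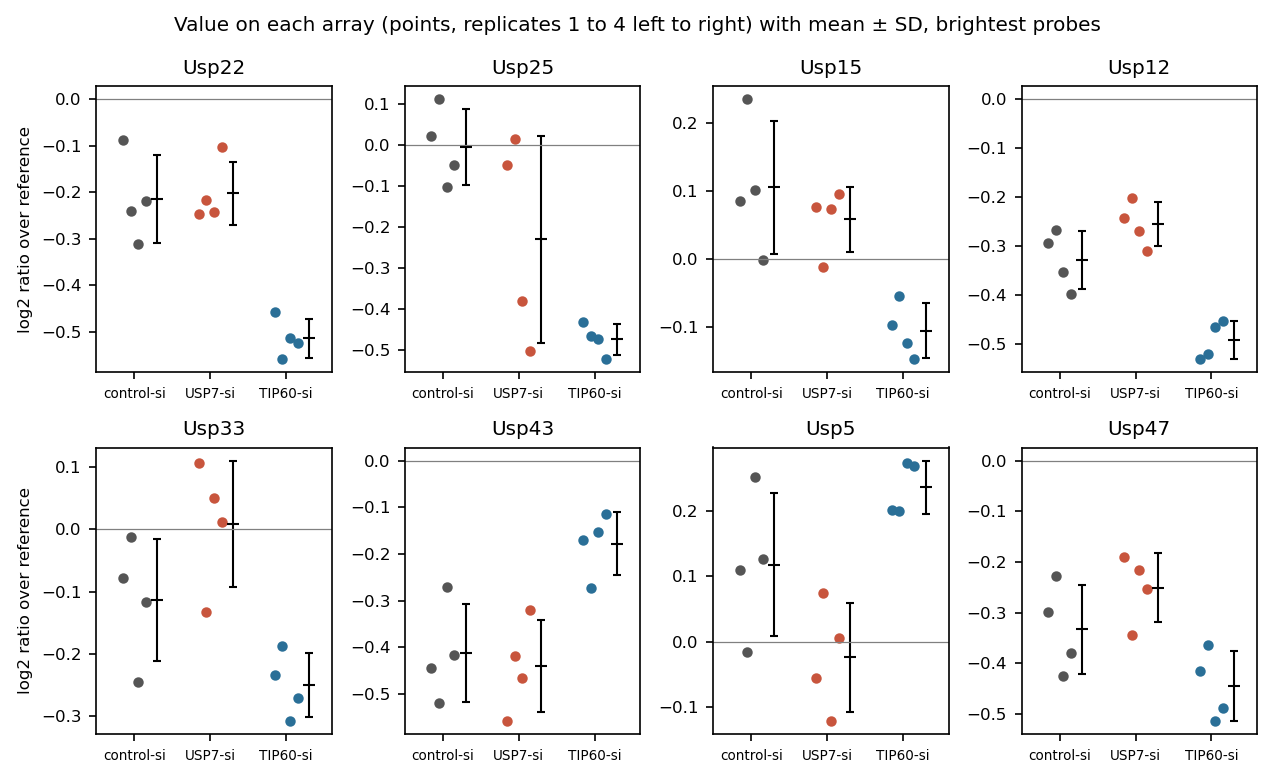
Log2 ratio over the reference (y axis) on each array of the 3 groups (x axis) for the brightest probes of 8 Usp genes, with points for replicates 1 to 4 and bars for the mean ± SD. The TIP60-si points of Usp22, Usp25, Usp15 and Usp12 lie below all control-si points, and the USP7-si points of Usp25 are split.

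By role, the lower members in TIP60-si were spread over the lists. Among the 11 members that act on p53, MDM2 or their partners only Usp15 was called, and among the 10 with histone or chromatin substrates only Usp22. Usp25 was the only call among the 9 that work at endosomes, the endoplasmic reticulum or mitochondria. Among the 7 members of DNA repair and the cell cycle none was called (limma, 0), with 3 at an unadjusted p below 0.05, and among the 3 that serve the proteasome or splicing none was (0, and 0 unadjusted). Over all named genes 5.21% were called, so 1 call in lists of this size is near the background. An unadjusted p below 0.05 (limma) was reached by 21.0% of the named genes. Of the p53 and MDM2 members 2 of 11 reached it, and of the chromatin members 2 of 10. Of the endosome, endoplasmic reticulum or mitochondria members 4 of 9 did (44.4%), 1 higher and 3 lower. For DNA repair and the cell cycle the share was 42.9%. Both these shares lie above that of the named genes, and the excess was not tested. The list medians were -0.023, -0.054, -0.14, -0.023 and 0.083, in the order in which the lists were named. These lists were chosen by known function, and Usp5 and Usp28 stand on 2 of them.

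Set against USP7-si, TIP60-si had 8 of 128 Usp probes called (6.25%), 4 higher and 4 lower, where 7.38% of all probes were (2.97% higher and 4.4% lower). The arrays did not overlap for 22 probes (17.19%) against 14.8%, and 38 probes had an unadjusted p below 0.05 (29.69%) against 20.7%. By brightest probe 5 of the 51 genes were called (9.8%), against 9.66% of the named genes. An unadjusted p below 0.05 (limma) was reached by 20 of the 51 (39.2%), 5 higher and 15 lower. Of the named genes 25.4% reached it, 1842 higher and 2801 lower. This comparison shares its TIP60-si arrays with the one above. Usp22 was again lower (-0.31, SE 0.055, adjusted p = 0.00460, range 0.00271 to 0.378). Usp12 was also lower. Its USP7-si arrays read -0.24, -0.20, -0.27 and -0.31, all above the 4 TIP60-si arrays, with a difference of -0.24 (SE 0.046, adjusted p = 0.00788, range 0.00448 to 0.834). Both calls held without each of the 12 arrays in turn, and both were lost with median centring and with scaling (0.105 for Usp22 and 0.834 for Usp12). The call of Usp12 was also lost with plain subtraction (0.0552), and its other probe gave 0.12 (adjusted p = 0.609).

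Usp5 and Usp43 were higher in TIP60-si than in USP7-si. Usp5 read -0.06, 0.07, -0.12 and 0.01 in USP7-si and 0.20, 0.20, 0.27 and 0.27 in TIP60-si. The groups did not overlap, and control-si, at 0.11, -0.02, 0.25 and 0.13, lay across the gap. The difference was 0.26 (SE 0.060, adjusted p = 0.0187, range 0.00838 to 0.941), and neither knockdown passed the test against control-si (-0.14, adjusted p = 0.732, and 0.12, adjusted p = 0.340). The other Usp5 probe gave 0.041 between the knockdowns (adjusted p = 0.683). Usp43 read -0.56, -0.42, -0.47 and -0.32 in USP7-si, below its TIP60-si arrays, with a difference of 0.26 (SE 0.064, adjusted p = 0.0241, range 0.0138 to 0.941).

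The 4 other calls were of genes whose probes disagreed. Usp33, a paralog of Usp20 that also acts on the beta2-adrenergic receptor, was lower by its brightest probe (-0.26, adjusted p = 0.0223) and higher by another (0.30, adjusted p = 0.0371), and its 3 remaining probes ran from -0.18 to 0.041. The brightest probe read 0.11, -0.13, 0.05 and 0.01 in USP7-si and -0.23, -0.19, -0.31 and -0.27 in TIP60-si. The other read 0.13, 0.23, 0.07 and 0.13 in USP7-si and 0.56, 0.29, 0.56 and 0.34 in TIP60-si. Neither pair of groups overlapped, so the direction of Usp33 depends on the probe. Usp47 was called higher by a dimmer probe (0.30, adjusted p = 0.0381), while its brightest gave -0.19 (adjusted p = 0.0539). Usp34, which removes ubiquitin from axin in Wnt signalling, was called lower by a dimmer probe (-0.24, adjusted p = 0.0398), while its brightest gave 0.055.

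Leaving out 1 array moved the count of 8 widely. It was 2 without replicate 3 of TIP60-si and likewise without replicates 1 or 3 of USP7-si. It was 5 without the replicate 4 of control-si or that of USP7-si, and 13 when replicate 2 of USP7-si was left out. Where the count was 2, the calls that held were those of Usp12 and Usp22, and those of Usp5, Usp33, Usp34, Usp43 and Usp47 were lost.

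Probes of the same gene were compared over the 28 genes with at least 2 probes above background on all arrays (74 probes). Over the reference, the means of a gene's probes in control-si spanned a median range of 0.31, and 7 genes spanned more than 0.5: Usp20 (0.83), Usp48 (0.79), Usp24 (0.76), Usp32 (0.68), Usp47 (0.55), Usp4 (0.51) and Usp12 (0.50). In 9 genes (Usp48, Usp24, Usp32, Usp47, Usp4, Usp33, Usp9x, Usp25 and Usp30) there were probes on opposite sides of the reference on all 4 arrays. For the knockdowns the median range was smaller, 0.092 in USP7-si and 0.13 in TIP60-si versus control-si. The probe sequences are not used here, so which transcript each probe reads was not tested.

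**Figure D4:**
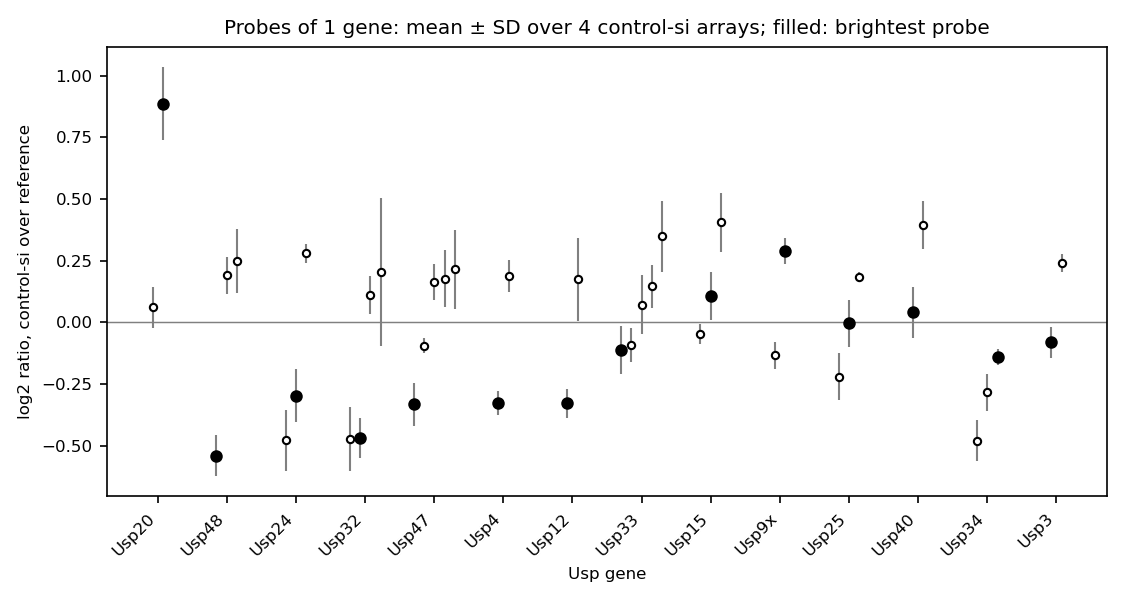
Mean log2 ratio over the reference in control-si (y axis, ± SD over 4 arrays) for each probe above background on all arrays, for the 14 Usp genes with the widest spread among their probes (x axis). Filled points are the brightest probe of each gene. The probes of Usp20 lie 0.83 apart, and those of Usp48 fall on both sides of 0.

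Deubiquitinases of other families were counted in the same fit. In USP7-si 0 of their 37 genes were called by limma (1 at an unadjusted p below 0.05), where 0.137% of all named genes were called and 7.22% had such a p. In TIP60-si 2 of 37 were called (5.41%), a share near the 5.21% of all named genes. Otub1, which also blocks ubiquitin-conjugating enzymes, rose by 0.34 (adjusted p = 0.0285), and Vcpip1, a partner of the p97 ATPase in Golgi assembly, fell by 0.28 (adjusted p = 0.0149). Against USP7-si 6 of 37 were called (16.2%, 9.66% of all named genes). Alg13, Josd2 and Otub1 were higher (0.45, 0.22 and 0.38), and Mindy2, Vcpip1 and Tnfaip3, which restrains NF-kappaB signalling, were lower (-0.25, -0.23 and -0.29).

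Among 17 genes for partners or substrates of Usp enzymes, 0 were called in USP7-si by limma. At an unadjusted p below 0.05 there were 3, all lower (17.6%, against 7.22% of the named genes). These were G3bp2 (-0.22) and the genes of the Usp1 substrates, Fancd2 (-0.16) and Pcna (-0.33). In TIP60-si 1 was called (5.88%, against 5.21%), G3bp1, the stress granule protein that binds Usp10 (-0.25, adjusted p = 0.0351), while Usp10 itself lay at -0.0076. In the same comparison 8 of the 17 had an unadjusted p below 0.05 by limma, 2 higher and 6 lower (47.1%, against 21.0% of the named genes). Wdr48, the activator of Usp1, Usp12 and Usp46, gave -0.036 in USP7-si and -0.084 in TIP60-si, with no call. Against USP7-si 4 of the 17 were called (23.5%, against 9.66% of all named genes). G3bp1 was again lower (-0.24, adjusted p = 0.0268). Gmps, which in human and fly cells binds and activates Usp7, was higher (0.19, adjusted p = 0.0493). The endosomal sorting genes Stam and Stam2, whose products bring Usp8 to endosomes, were lower (-0.24 and -0.31, adjusted p = 0.0185 and 0.0235), with Usp8 itself uncalled.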

How the data were processed

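RNA of 12 samples was measured on two-colour arrays. Per the file headers and the labels' protocols, the authors scanned the arrays and extracted features with Imagene (version not given in the sources used here), and the deposited scanner files hold the linear intensity of each spot and its local background. The authors applied print-tip loess without background correction, and the deposited value table holds the resulting log2 ratios, which matched the normalized files, taken as sample over reference, to within 5e-06. Its column medians ran from -0.00915 to 0.00526.

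From the scanner intensities, ratios were computed in limma 3.58.1 (R 4.3.3) with normexp background correction (offset 50) and loess, control spots at weight 0, with no scaling between arrays. A model of group and dye orientation over all 12 arrays was fitted with lmFit and eBayes, two-sided, with Benjamini-Hochberg adjustment over 41174 probes. Printed array values are corrected for the dye term. A probe was above background if its sample signal exceeded it by 2 background SDs. The brightest probe stood for its gene. Named genes were members called in any comparison, the 6 with the smallest p in each knockdown and the 4 between knockdowns, the 8 highest and 8 lowest over the reference, Usp47, Usp40, Usp2 and examples of each role. The members and lists were chosen with earlier results of these data known. The fit was run on simulated data with independent noise on each array, which does not cover spread that arrays share. Gene symbols came from the platform annotation, updated through RefSeq. The main fit did not pair samples by replicate number, and odd and even numbers are the dye orientations. Raw deviations of same-numbered arrays correlated at 0.079 to 0.55, and those of other numbers and the same dye at 0.022 to 0.47. After dye correction the ranges were -0.29 to 0.31 and -0.46 to 0.0012 in that order. Same-numbered arrays ranged higher both times, and what they share was not tested. A replicate block was run as an alternative. The alternatives were other background corrections, normalizations, the authors' ratios, a filter on dim probes, other covariates, array weights, fewer arrays and each array left out.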

Additional observations from a re-analysis of the deposited data

Results flagged for a closer look

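Among 84 groups of 4 arrays, over the brightest probes of the named genes, 3 held an array far from the other arrays of its group, where chance flags about 1 in 20, or 4.2. Usp28 in USP7-si replicate 3 stood at 0.20 with the others at 0.16. Usp34 in TIP60-si replicate 3 stood at -0.14 with the others between 0.042 and 0.057. Usp48 in TIP60-si replicate 4 stood at -0.41 with the others between -0.54 and -0.53. None of these probes was called in any comparison, and the cause was not tested.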

How the results depend on the processing

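The absence of calls in USP7-si versus control-si held under all 22 alternatives (0 Usp probes each time). The 3 called Usp probes of TIP60-si versus control-si became 1 with plain background subtraction, 0 with median centring, 0 with scaling, 1 with no dye term and 5 with the replicate block, and 1 to 6 without each array. The 8 of TIP60-si versus USP7-si became 5 with no background correction, 1 with subtraction, 0 with median centring, 1 with scaling, 5 with the authors' ratios, 3 with no dye term, 14 with array quality weights and 12 with the replicate block, and 2 to 13 without each array. No direction of a called probe was turned. Over all probes the counts of 35, 1556 and 3037 fell to 3, 26 and 41 with median centring, to 4, 97 and 310 with scaling, to 12, 640 and 1084 with subtraction and to 18, 602 and 1373 with no dye term, and array quality weights gave 77, 1675 and 4061. The median of the Usp genes over the reference was -0.10 with subtraction, under which 2 genes passed 2-fold. The cause of these changes was not tested. Where an array was left out, the 3 that remained were assumed to vary like the other groups. Slide or scan as a block was not run, since the scanner files used here give neither. With 4 arrays a group, a median standard error of 0.058 limits what small differences can be called.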
